A study of Mus musculus with 12 samples.

Results

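Inflammatory chemokines and cytokines were examined in megakaryocytes (MKs), the cells that make platelets, as 10 genes of the 55536 in the count table: the CC chemokines Ccl3, Ccl4, Ccl5, Ccl6 and Ccl9, the CXC chemokine Cxcl2, and the cytokines Il6, Il1b, Tnf and Osm. Ccl3, Ccl4 and Il6 had been selected on their fall after sepsis in these same libraries, so their differences between groups are given as a description without a test. The other 7 genes belong to the same families and were tested in every comparison, although all 10 were chosen with earlier results of these libraries known. All 10 genes passed the filter on low counts.

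RNA was measured in MKs sorted as CD45+ Lin- Tomato+ CD41+ CD42b+ cells from BM and from spleen in Pf4-TdTomato mice, with 300 cells in each library. There were 4 groups of 3 libraries, namely BM MKs after saline, BM MKs after sepsis, splenic MKs after saline and splenic MKs after sepsis, all taken on day 5. Sepsis was induced with cecal slurry (CS), and the control mice received saline. The study describes the 3 libraries of each population as independent replicates.

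All 4 groups carried the same alleles on a C57BL/6 background, a Pf4-icre transgene and a tdTomato reporter at the ROSA26 locus, and the mice of the study were 8 to 12 weeks old. Because the Pf4 promoter drives the recombinase, a cell stays red if it or a precursor once expressed Pf4. Summed over 10 MK and platelet markers, none of them at 0 in any group, the level was 11641 to 47320 CPM (counts relative to the library total, scaled with TMM factors) in BM libraries and 1212 to 3511 CPM in splenic libraries. Pf4 and Ppbp had the highest means of this list in every group, 18663 and 4581 CPM in BM MKs after saline, so the sum weighs them most. Segment genes of immunoglobulins and T cell receptors held 1.04% to 4.23% of counts in BM libraries and 13.03% to 30.1% in splenic libraries. Total counts per library were 7756762 to 27386184. Splenic sepsis replicate 3 stood apart from the other 2 libraries of its group, and values without it are given beside the results it moved most. For the genes of those results it was the highest splenic sepsis library, as replicate 2 was for Il6. Leaving out the highest library widens the difference by construction, so a p-value without it shows dependence on that library and is not support.

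Chemokines are small secreted proteins that draw leukocytes along a gradient by binding G protein-coupled receptors. CC chemokines such as Ccl3, Ccl4 and Ccl5 act on monocytes, T cells, NK cells, basophils and eosinophils, whereas Cxcl2 acts on neutrophils through Cxcr2. Il6, Il1b, Tnf and Osm are cytokines of the acute response to infection, and many of these genes are switched on within hours by NF-kB and AP-1 transcription factors in myeloid cells and mast cells.

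Ccl5, Ccl9, Ccl6, Ccl3 and Ccl4 lie in this order in a single cluster on chromosome 11 (GRCm38), from 83525778 at the end of Ccl5 to 83664683 at the end of Ccl4, and Osm lies elsewhere on the same chromosome. Il6 and Cxcl2 are on chromosome 5, Il1b is on chromosome 2 and Tnf is on chromosome 17. No exonic base of the members was shared with another gene except in Il1b, where 1.31% of exonic bases overlap the antisense gene Il1bos and, with no strand setting given, reads of the pair cannot be told apart. Promoter sequences (RefSeq, GRCm38.p6) were matched for 7 of the 10 members. The 3 members that held an NF-kB type motif were lower after sepsis in every library of both tissues, and Il6 among them was picked for its fall. Ccl3 and Ccl6, whose promoters held no match to that motif, were lower in the same way. The 150 bases before the annotated start are shown for Il6, Cxcl2 and Ccl9, and for Il1b, which overlapped between saline and sepsis. Each is written 5′ to 3′ on the strand of the gene, and capitals mark matches, on either strand, to a TATA box (TATAAA), to an NF-kB type motif (GGG, any 2 bases, TTTCC) or to an AP-1 type motif (TGA, any base, TCA).
Il6, chr5:30012964-30013113, plus strand: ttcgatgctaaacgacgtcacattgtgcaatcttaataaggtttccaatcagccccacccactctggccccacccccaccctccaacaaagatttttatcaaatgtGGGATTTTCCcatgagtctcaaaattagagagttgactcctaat
Cxcl2, chr5:90903749-90903898, plus strand: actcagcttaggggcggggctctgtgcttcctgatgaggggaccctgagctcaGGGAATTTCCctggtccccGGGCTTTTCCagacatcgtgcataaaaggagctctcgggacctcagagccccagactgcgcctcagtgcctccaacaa
Ccl9, chr11:83578637-83578786, minus strand: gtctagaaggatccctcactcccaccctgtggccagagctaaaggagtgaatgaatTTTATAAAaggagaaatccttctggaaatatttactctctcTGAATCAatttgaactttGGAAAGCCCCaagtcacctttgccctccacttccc
Il1b, chr2:129371140-129371289, minus strand: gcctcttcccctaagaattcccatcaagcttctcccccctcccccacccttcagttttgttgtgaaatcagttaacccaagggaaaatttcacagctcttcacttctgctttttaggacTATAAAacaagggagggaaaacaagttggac

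In the whole window from 250 bases before to 50 bases after the start, the NF-kB type motif was found in 3 of the 7 promoters, those of Il6, Cxcl2 and Ccl9, against 1.63% of the 32851 mouse promoters of that length. Cxcl2 held 2 copies, at positions -97 to -88 and -78 to -69 from the start, and Il6 held 1 copy at -44 to -35. The TATA box was found in 3 of 7 (Ccl9, Il1b and Tnf), against 13.6% of all promoters, and the AP-1 type motif in 2 of 7 (Ccl9 and Il6), against 7.81%. In Ccl9, 2 of the TATA box matches overlap each other on opposite strands. A match describes letters only, and these windows were not assayed here.

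After saline the 10 genes together took 0.266% to 0.714% of all counts in BM MKs and 0.261% to 1.31% in splenic MKs. After sepsis they took 0.0681% to 0.151% in BM MKs and 0.00478% to 0.0761% in splenic MKs, a sum that includes the 3 genes picked for their fall. Without those 3, the other 7 genes took 0.125% to 0.355% after saline and 0.0432% to 0.0895% after sepsis in BM MKs, and 0.189% to 0.792% and 0.00324% to 0.0673% in splenic MKs, without overlap between saline and sepsis in either tissue. Since whole samples of sorted cells were measured, fewer cells that express a gene and less RNA per cell cannot be told apart. Ordered by mean CPM per kilobase of exon, BM MKs after saline gave Ccl3 (1608), Ccl4 (1206), Ccl6 (658), Ccl9 (212), Ccl5 (90.4), Il6 (40.2), Osm (23.3), Il1b (12.1), Tnf (1.55) and Cxcl2 (1.44). Every neighbouring pair in that order overlapped in its range over libraries except Il1b and Tnf. Splenic MKs after saline also began with Ccl3, Ccl4 and Ccl6, at 3131, 2517 and 2326 CPM per kilobase, with ranges that overlapped. After sepsis the order in BM MKs began with Ccl3, Ccl4, Ccl6 and Ccl9, and Il1b moved up to the fifth place at 23.8 CPM per kilobase, below Ccl9 and above Ccl5 without overlap with either. In splenic MKs after sepsis Ccl5 led with 71.0 CPM per kilobase, and no neighbouring pair in the order was free of overlap.

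**Figure D1:**
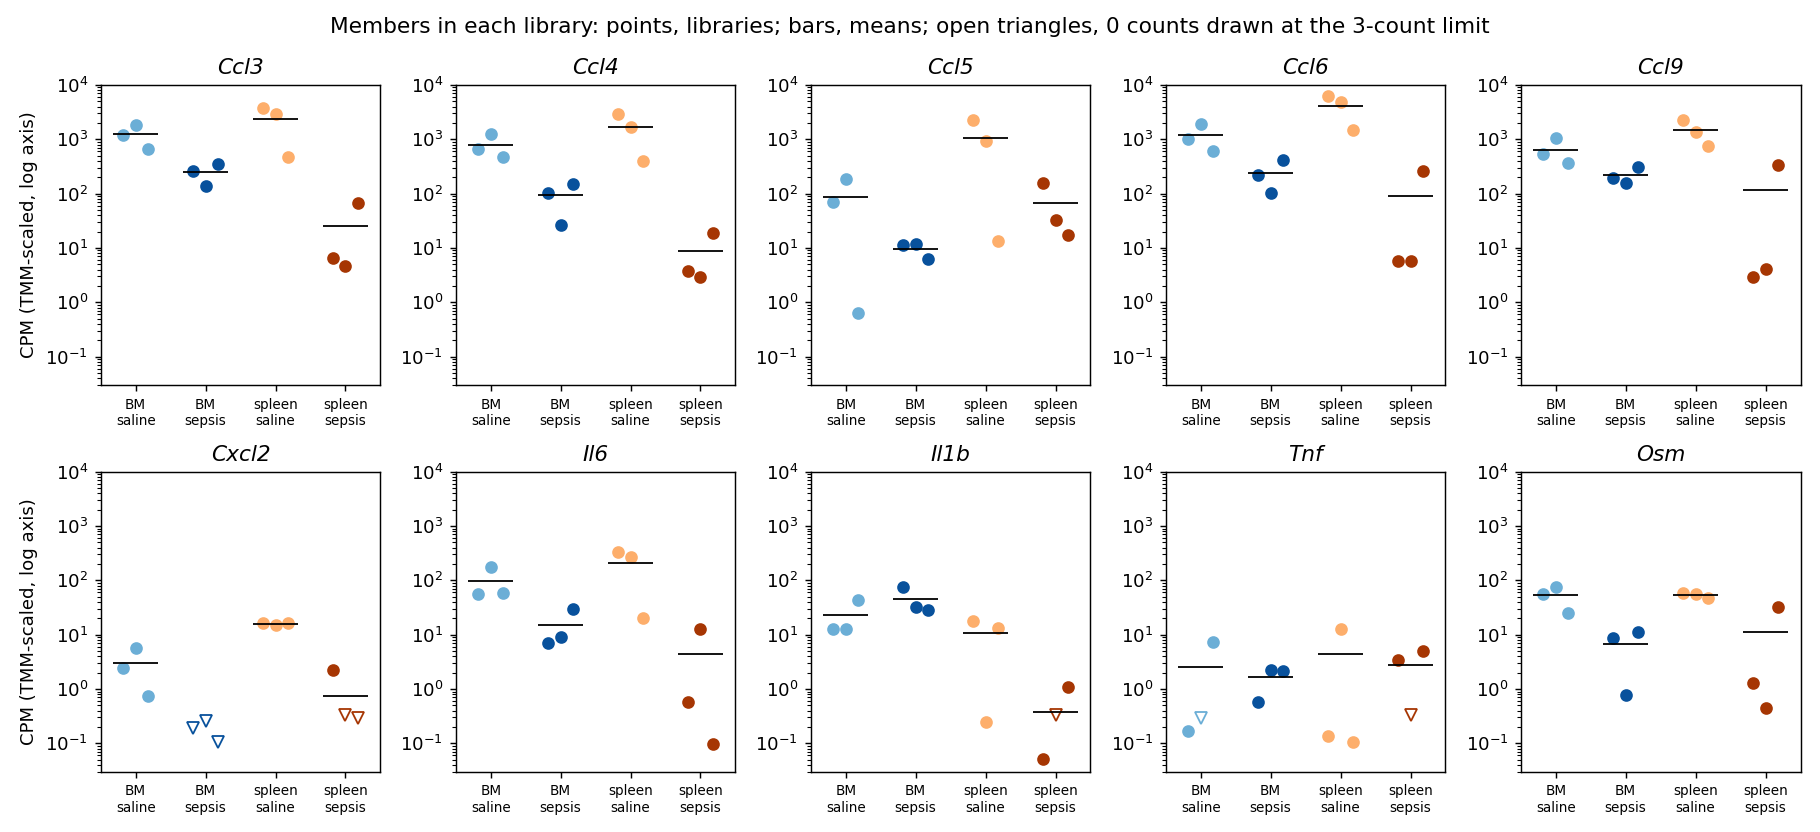
Level of each of the 10 genes in each of the 12 libraries (vertical axis, TMM-scaled CPM on a log axis) by group (horizontal axis). Points are libraries, bars are group means, and open triangles are libraries with 0 counts, drawn at the limit of 3 counts. Ccl3, Ccl4, Ccl6, Ccl9, Cxcl2, Il6 and Osm were lower in every sepsis library than in every saline library of the same tissue.

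Ccl3 encodes macrophage inflammatory protein 1-alpha, a ligand of Ccr1. Its level was 1213, 1834 and 648 CPM in BM MKs after saline and 265, 138 and 346 CPM after sepsis. In splenic MKs it was 3838, 2891 and 467 CPM after saline and 6.48, 4.59 and 66.2 CPM after sepsis. The sepsis libraries were below all saline libraries in both tissues, and the lowest values were in the spleen. The mean was 4.93-fold lower after sepsis in BM and 93.1-fold lower in spleen. The fitted log2 fold change was -2.30 (SE 0.86) in BM and -6.54 (SE 1.04) in spleen, and -8.71 in spleen without splenic sepsis replicate 3.

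Ccl4 encodes macrophage inflammatory protein 1-beta, which attracts monocytes and T cells. It followed Ccl3 closely, with 649, 1267 and 472 CPM in BM MKs after saline and 101, 26.9 and 152 CPM after sepsis. In splenic MKs the values were 2881, 1699 and 405 CPM after saline and 3.80, 2.91 and 19.1 CPM after sepsis. The log2 fold change was -3.09 (SE 0.82) in BM and -7.59 (SE 1.01) in spleen, and -8.90 in spleen without splenic sepsis replicate 3. Both of these genes thus had a larger fitted difference in spleen than in BM, which is a description and was not tested because they were picked for it.

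Ccl6 and Ccl9, chemokines found in rodents that act on Ccr1, were not among the 3 genes picked for their fall, and they too were lower in every sepsis library than in every saline library of their tissue. Ccl6 was at 1024, 1919 and 603 CPM in BM MKs after saline and at 220, 102 and 412 CPM after sepsis. In splenic MKs Ccl6 was at 6136, 4886 and 1503 CPM after saline and at 5.86, 5.83 and 263 CPM after sepsis. No sepsis library reached the lowest saline library in either tissue, and the third splenic sepsis library was far above the other 2. The mean of Ccl6 was 4.83-fold lower in BM and 45.6-fold lower in spleen. In edgeR the log2 fold change of Ccl6 was -2.27 (SE 1.03, adjusted p = 1) in BM and -5.51 (SE 1.20, adjusted p = 0.0913) in spleen, so neither passed the threshold of 0.05. Averaged over the tissues it was -3.89 (SE 0.78, adjusted p = 0.0804). Ccl6 passed in 15 of 21 alternative settings in spleen and in 15 of 20 on average, but these settings share most libraries and are not independent. Leaving out 1 library also raised the calls over all genes, to 48 to 138 in spleen (main 32) and 31 to 83 on average (main 14). Without splenic sepsis replicate 3, the sepsis library nearest to saline, the value in spleen was -9.43 (edgeR adjusted p = 7.92e-07). That p follows from which library was left out and is not support.

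Ccl9 was at 534, 1035 and 365 CPM in BM MKs after saline and at 196, 154 and 312 CPM after sepsis. In splenic MKs Ccl9 was at 2307, 1361 and 755 CPM after saline and at 2.98, 4.03 and 335 CPM after sepsis. The groups again did not overlap. Its log2 fold change was -1.55 (SE 1.08, edgeR adjusted p = 1) in BM and -3.69 (SE 1.18, adjusted p = 0.330) in spleen, with -8.68 (adjusted p = 7.92e-07) in spleen without splenic sepsis replicate 3. In spleen Ccl9 passed in 3 of 21 alternative settings.

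Ccl5, a ligand of Ccr1 and Ccr3 that T cells and NK cells express strongly, was the most uneven of the CC chemokines within the saline groups. It was at 70.5, 189 and 0.646 CPM in BM MKs after saline and at 11.3, 11.6 and 6.28 CPM after sepsis. In splenic MKs it was at 2250, 924 and 13.6 CPM after saline and at 155, 32.2 and 17.3 CPM after sepsis. The third saline library of each tissue lay below or among the sepsis libraries, so the groups overlapped. The log2 fold change was -3.15 (SE 1.35, edgeR adjusted p = 1) in BM and -3.96 (SE 1.40, adjusted p = 0.382) in spleen.

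Cxcl2 was a rare transcript, with 28, 58 and 7 counts in BM MKs after saline and 0 counts in all 3 libraries after sepsis. In splenic MKs Cxcl2 had 119, 186 and 151 counts (16.1, 15.3 and 16.2 CPM) after saline and 43, 0 and 0 counts after sepsis. Taking 3 counts over the group as the limit that 0 counts allow, Cxcl2 was at least 55.6-fold lower in BM MKs after sepsis, which covers counting error only. In edgeR the adjusted p was 1 in BM and 0.398 in spleen.

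Il6, which drives the acute-phase response and supports MK maturation, was at 56.5, 179 and 57.4 CPM in BM MKs after saline and at 6.98, 9.10 and 30.1 CPM after sepsis. In splenic MKs Il6 was at 335, 266 and 20.3 CPM after saline and at 0.565, 12.7 and 0.0971 CPM after sepsis. The highest splenic sepsis library was replicate 2, not replicate 3 as for Ccl3 and Ccl6. The log2 fold change was -2.66 (SE 1.19) in BM and -5.55 (SE 1.36) in spleen, and -9.07 in spleen without splenic sepsis replicate 2, as a description of a gene picked for its fall.

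Osm, an Il6-family cytokine that signals through gp130, was at 56.5, 76.7 and 25.3 CPM in BM MKs after saline and at 8.87, 0.765 and 11.02 CPM after sepsis. In splenic MKs Osm was at 57.4, 54.9 and 47.7 CPM after saline and at 1.29, 0.448 and 32.1 CPM after sepsis. The groups did not overlap, although splenic sepsis replicate 3 came close to the saline libraries. The log2 fold change was -2.94 (SE 1.24, edgeR adjusted p = 1) in BM and -2.24 (SE 1.20, adjusted p = 0.407) in spleen. Without splenic sepsis replicate 3 the value in spleen was -5.85 (edgeR adjusted p = 0.0378), the single setting of 21 in which Osm passed there.

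Il1b, the pyrogenic cytokine that is cleaved to its active form by caspase-1, was at 12.8, 12.8 and 43.8 CPM in BM MKs after saline and at 75.4, 32.2 and 28.5 CPM after sepsis, and these groups overlapped. In splenic MKs Il1b was at 18.1, 0.248 and 13.3 CPM after saline, and after sepsis it had only 1, 0 and 11 counts. The log2 fold change after sepsis was 0.97 (SE 1.28, edgeR adjusted p = 1) in BM and -4.82 (SE 1.53, adjusted p = 0.329) in spleen, with -7.95 (adjusted p = 0.0680) in spleen without splenic sepsis replicate 3. The difference between these responses, the tissue by sepsis interaction, was 5.79 (SE 1.96, adjusted p = 0.543). Tnf was uneven between libraries, with 2, 0 and 69 counts in BM MKs after saline, 9, 26 and 61 after sepsis, 1, 157 and 1 in splenic MKs after saline, and 66, 0 and 51 after sepsis. Tnf had no order of groups that its libraries shared, and no fold change is given for it.

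**Figure D2:**
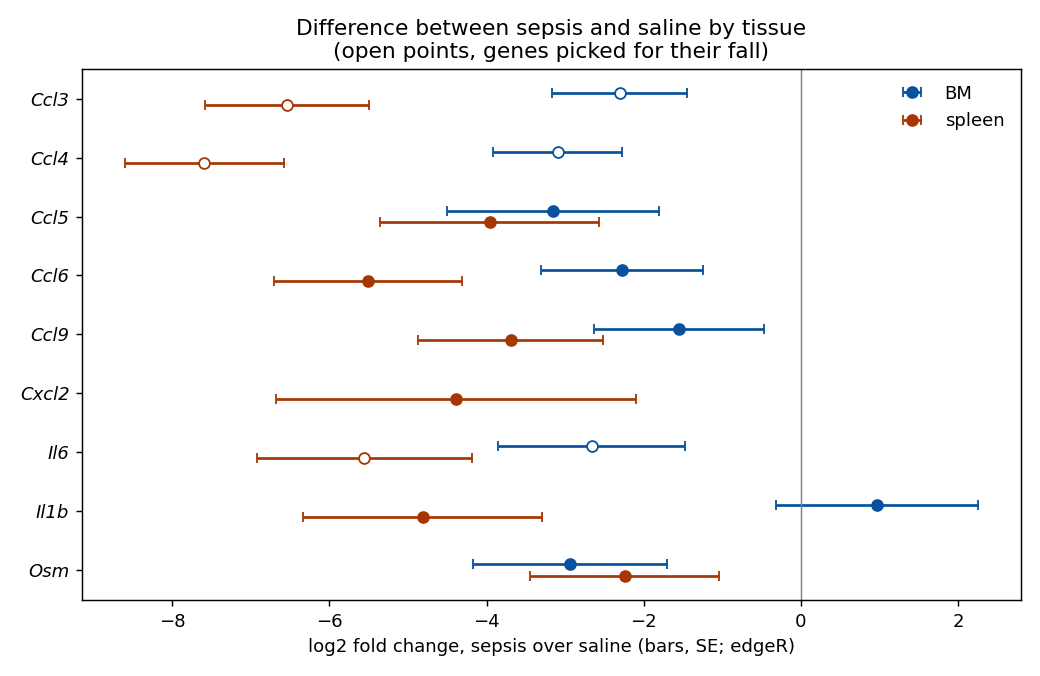
Log2 fold change of sepsis over saline in BM (blue) and spleen (brown) with its SE (horizontal axis) for 9 genes (vertical axis), from edgeR. Open points are the picked genes. The BM value of Cxcl2, a comparison with 0 counts, and Tnf are left out, and Il1b in BM is the only point above 0, at 0.97.

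Counted over the 7 tested genes, which were also chosen with earlier results known, 4 (Ccl6, Ccl9, Cxcl2 and Osm) had every sepsis library below every saline library in BM, where 4.16% of the 20263 genes tested were lower without overlap. The same 4 genes did so in spleen, where the share over all genes was 4.51%. Neither comparison gave a called gene among the 7 in edgeR, with 4 at an unadjusted p under 0.05 in each (3.54% of all genes in BM and 13.1% in spleen). Over all genes, edgeR called 0 (0%) in BM, where 717 had an unadjusted p under 0.05, and 32 (0.158%) in spleen. DESeq2 called 1 of the 7 in BM (Cxcl2) and 3 in spleen (Ccl6, Ccl9 and Il1b), against 206 and 986 of all genes. Limma-voom called 0 of the 7 and 0 of all genes in either tissue. Averaged over the tissues edgeR called 0 of 7, with 5 at an unadjusted p under 0.05 (10.2% of all genes), against 14 of all genes called (0.0691%), whereas DESeq2 called 5 (676 of all genes) and limma-voom 0 (1 of all genes). For the interaction edgeR, DESeq2 and limma-voom called 0 of 7, with 2, 2 and 3 at an unadjusted p under 0.05, and edgeR called 0 (0%) of all genes, 7.68% of which had an unadjusted p under 0.05. The median log2 fold change of the 7 tested genes was -2.27 in BM and -3.96 in spleen, and that of all genes tested was -0.08 in each tissue.

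Between tissues after saline, the log2 fold change of BM over spleen for Ccl3, Ccl4, Ccl6, Ccl9 and Il6 was -0.96 (SE 0.83), -1.06 (SE 0.77), -1.82 (SE 1.02), -1.19 (SE 1.07) and -1.08 (SE 1.13), in that order, and all 5 overlapped between tissues. Ccl5 had -3.61 (SE 1.37, edgeR adjusted p = 0.305). None of the 7 tested genes was called by edgeR, DESeq2 or limma-voom, with 1, 2 and 3 at an unadjusted p under 0.05, and edgeR called 1.25% of all genes, with 12.5% at an unadjusted p under 0.05. Cxcl2 alone was lower in BM without overlap (0.754 to 5.77 CPM against 15.3 to 16.2 CPM, edgeR adjusted p = 0.708). Over all genes, 18.3% did not overlap between tissues in either direction.

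After sepsis every BM library was above every splenic library for Ccl3 and Ccl4. Ccl3 was at 138 to 346 CPM in BM MKs and at 4.59 to 66.2 CPM in splenic MKs, a log2 fold change of 3.28 (SE 0.90), and Ccl4 had 3.44 (SE 0.84), as descriptions of picked genes. Without splenic sepsis replicate 3 these were 5.51 and 4.81. Ccl6 and Ccl9 overlapped, with 1.42 (SE 1.005, edgeR adjusted p = 0.553) and 0.95 (SE 1.07, adjusted p = 0.776). Both depended on splenic sepsis replicate 3, without which the values were 5.41 (edgeR adjusted p = 3.55e-05) and 6.00 (adjusted p = 4.55e-06), and Ccl6 also passed with no filter (adjusted p = 0.0279). Il6 had 1.81 (SE 1.16), and 5.46 without splenic sepsis replicate 2. Ccl5 was lower in BM than in spleen without overlap, with -2.81 (SE 1.33, edgeR adjusted p = 0.384). Of the 7 tested genes, 2 (Il1b and Ccl5) thus did not overlap between tissues after sepsis, against 18.0% of all genes.

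Il1b was the only tested member that passed the threshold in edgeR, out of 3 with an unadjusted p under 0.05 after sepsis and 3 on average over the treatments. After sepsis it was 122-fold higher by mean CPM in BM MKs (45.4 ± 26.1 CPM, SD, n = 3) than in splenic MKs (0.373 ± 0.602 CPM, SD, n = 3), and every BM library was above every splenic library. The fitted log2 fold change was 6.92 (SE 1.67, edgeR adjusted p = 0.0347), where edgeR called 1.78% of all genes and 12.9% had an unadjusted p under 0.05. The call rests on few libraries, since the adjusted p was 0.0594 without BM sepsis replicate 1, 0.0541 without splenic sepsis replicate 1, 0.0517 without splenic sepsis replicate 2 and 0.0551 in a fit of the 6 sepsis libraries alone. Without splenic sepsis replicate 3 the value rose to 10.09 (edgeR adjusted p = 0.00479). Averaged over saline and sepsis, Il1b was higher in BM by 4.03 (SE 1.03, adjusted p = 0.0262), where edgeR called 4.75% of all genes and 19.3% had an unadjusted p under 0.05, and Ccl5 had a value of -3.21 (SE 0.95, adjusted p = 0.0607) that passed in 13 of 20 alternative settings. Several marker lists moved with this difference after sepsis. The summed level in BM against splenic sepsis libraries was 11641 to 47320 against 1212 to 2256 CPM for 10 MK and platelet markers and 2854 to 6801 against 50.5 to 813 CPM for 10 basophil and mast cell markers, with none of either list at 0. For 13 neutrophil markers, none at 0, it was 2274 to 16998 against 67.9 to 10700 CPM, which overlap. Without overlap, 5 of 10 MK and platelet, 9 of 10 basophil and mast cell and 2 of 13 neutrophil markers were higher in BM. Over all genes, 18.0% did not overlap in either direction. The part of these cells in the Il1b difference was not tested.

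The CC chemokines other than Ccl5 varied together. Over the 12 libraries, which share tissue and treatment, Pearson's r of log2 CPM was 0.98 for Ccl3 with Ccl4, 0.98 for Ccl6 with Ccl9 and 0.97 for Ccl3 with Ccl6. Taken as deviations from the group means, these were 0.94, 0.97 and 0.94. Osm was tied to Ccl6 (0.90, and 0.90 within groups). Il6 was not tied to Ccl3 within groups, with an r of 0.78 over the libraries and -0.00 within groups. Tnf had an r between -0.27 and -0.00 with every other member.

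Ratios within a library show how unequal the differences were. Ccl3 had 1.37 to 1.87 counts for each count of Ccl4 in BM MKs after saline and 2.28 to 5.15 after sepsis, without overlap, while in splenic MKs the ratio was 1.15 to 1.70 after saline and 1.58 to 3.46 after sepsis. Ccl6 had 1.65 to 1.92 counts for each count of Ccl9 in BM MKs after saline and 0.660 to 1.32 after sepsis. In splenic MKs this ratio was 1.99 to 3.59 after saline and 0.784 to 1.97 after sepsis. The Ccl6 to Ccl9 ratio was thus lower in every sepsis library than in every saline library of its tissue.

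The genes whose pattern was most like that of the CC chemokines included basophil and mast cell genes. Over the 12 libraries the highest r with Ccl3 was that of Cd200r3 (0.99), an activating receptor of basophils and mast cells, followed by Fcer1a (0.98), the IgE-binding chain of the high-affinity IgE receptor, and Ier3 (0.97). For Ccl4 they were Lilrb4a (0.97), Sytl3 (0.96) and Cd200r3 (0.96), for Ccl6 Sytl3 (0.97), Cd200r3 (0.97) and Gm12195 (0.97), and for Ccl9 Cyp11a1 (0.98), Ier3 (0.97) and Gcnt2 (0.96). Ccl3 had 2.57 to 3.23 counts for each count of Cd200r3 in BM MKs after saline, 1.97 to 2.64 in BM MKs after sepsis, 3.13 to 5.98 in splenic MKs after saline and 1.32 to 2.05 in splenic MKs after sepsis. This ratio spanned 1.32 to 5.98 over the libraries, while Ccl3 itself spanned 4.59 to 3838 CPM.

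For the other members, Osm was most like Il18r1 (0.98), a chain of the Il18 receptor, Gm16575 (0.90) and Zfp874b (0.90), and Il6 was most like Tyrobp (0.95), Fcgr3 (0.92) and Tmem64 (0.90), of which the first 2 encode an adaptor and an Fc receptor of myeloid and NK cells. Il1b was most like Rab32, Kif13a and Serpinb10 (each 0.97). Ccl5 was most like Cast (0.92), Capza1 (0.91) and Arap2 (0.90), and its r with the T cell gene Cd3d was 0.79. Cxcl2 was most like 2510002D24Rik (0.94), Chrne (0.92) and Gm13230 (0.92), and Tnf like Efemp2 (0.96), Rhbdf1 (0.92) and Acy1 (0.90), for transcripts that were at or near 0 counts in several libraries.

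**Figure D3:**
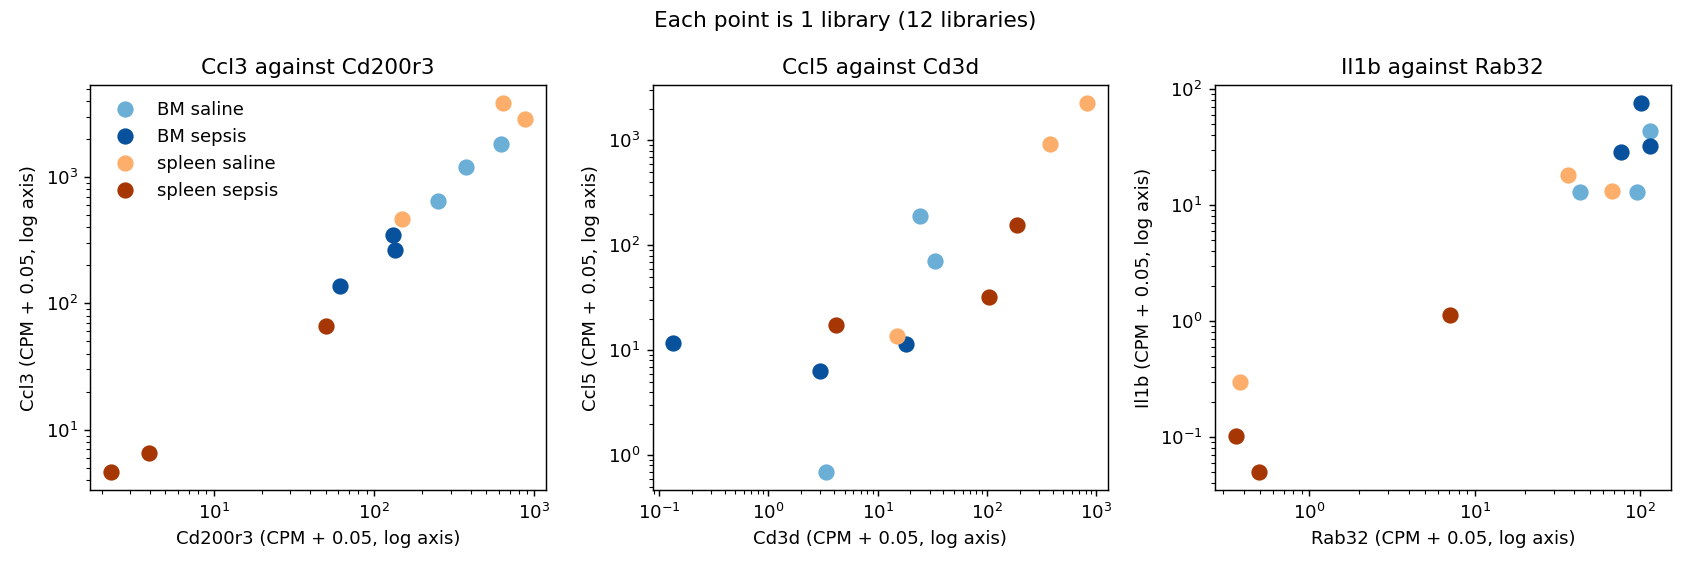
Ccl3 against Cd200r3, Ccl5 against Cd3d and Il1b against Rab32 in the 12 libraries, each axis in CPM plus 0.05 on a log scale, with points coloured by group. Ccl3 and Cd200r3 lie along a line from the splenic sepsis libraries at the lower left to splenic saline replicates 1 and 2 at the upper right (r = 0.99), whereas Ccl5 and Cd3d scatter more (r = 0.79). Splenic saline replicate 3 lies lower on that line, at 149 CPM of Cd200r3 and 467 CPM of Ccl3, below the BM saline libraries.

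Basophil and mast cell markers were therefore set beside the chemokines. All 10 markers of that list had a negative log2 fold change after sepsis in both tissues, and none was at 0 in any group. In BM 4 were lower after sepsis without overlap (4.16% of all genes), and in spleen 8 were (4.51% of all genes). Cd200r3 and Fcer1a were the genes most like Ccl3, itself picked for its fall in these same libraries. The fall of the list is therefore not separate support. The summed level of the 10 markers was 5234 to 29664 CPM in BM MKs after saline and 2854 to 6801 CPM after sepsis. In splenic MKs it was 3294 to 5522 CPM after saline and 50.5 to 813 CPM after sepsis. Mcpt8 and Prss34 had the highest means of the list in every group. After saline these means were 6783 and 5564 CPM in BM MKs and 1280 and 626 CPM in splenic MKs. The sum, and any percent of it, therefore weighs Mcpt8 and Prss34 most. In edgeR 3 of 10 were called lower in spleen, namely Il4 (log2 fold change -7.99, SE 1.22, adjusted p = 0.0127), the mast cell protease Cpa3 (-5.04, SE 0.89, adjusted p = 0.0307) and Ms4a2, another chain of the IgE receptor (-5.07, SE 0.97, adjusted p = 0.0400), and 0 of 10 in BM. Over all genes, edgeR called 0.158% in spleen and 0% in BM, in either direction. The median of the list was -1.44 in BM and -4.10 in spleen.

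Expressed as a percent of that summed level, Ccl3 was at 6.18% to 12.4% in BM MKs after saline and at 4.69% to 5.09% after sepsis, and in splenic MKs at 14.2% to 77.4% and at 6.68% to 9.09%. Ccl4 went from 4.27% to 9.02% in BM MKs after saline to 0.941% to 2.23% after sepsis, and Ccl6 from 6.47% to 11.5% to 3.57% to 6.06%. These 3 genes, of which Ccl3 and Ccl4 were picked for their fall, were lower without overlap in both tissues on this scale, with Ccl4 at 12.3% to 52.2% against 2.35% to 5.76% and Ccl6 at 45.6% to 131% against 6.05% to 32.4% in spleen. Ccl9 overlapped on this scale in both tissues, and Il6 and Osm overlapped in spleen but not in BM. The scale matters, since counts of Ccl3 for each count of Cd200r3 overlapped in BM (2.57 to 3.23 against 1.97 to 2.64). They did not overlap in spleen (3.13 to 5.98 against 1.32 to 2.05). The share over all genes on these scales was not computed. The part of basophils or mast cells in the differences between saline and sepsis was not tested.

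**Figure D4:**
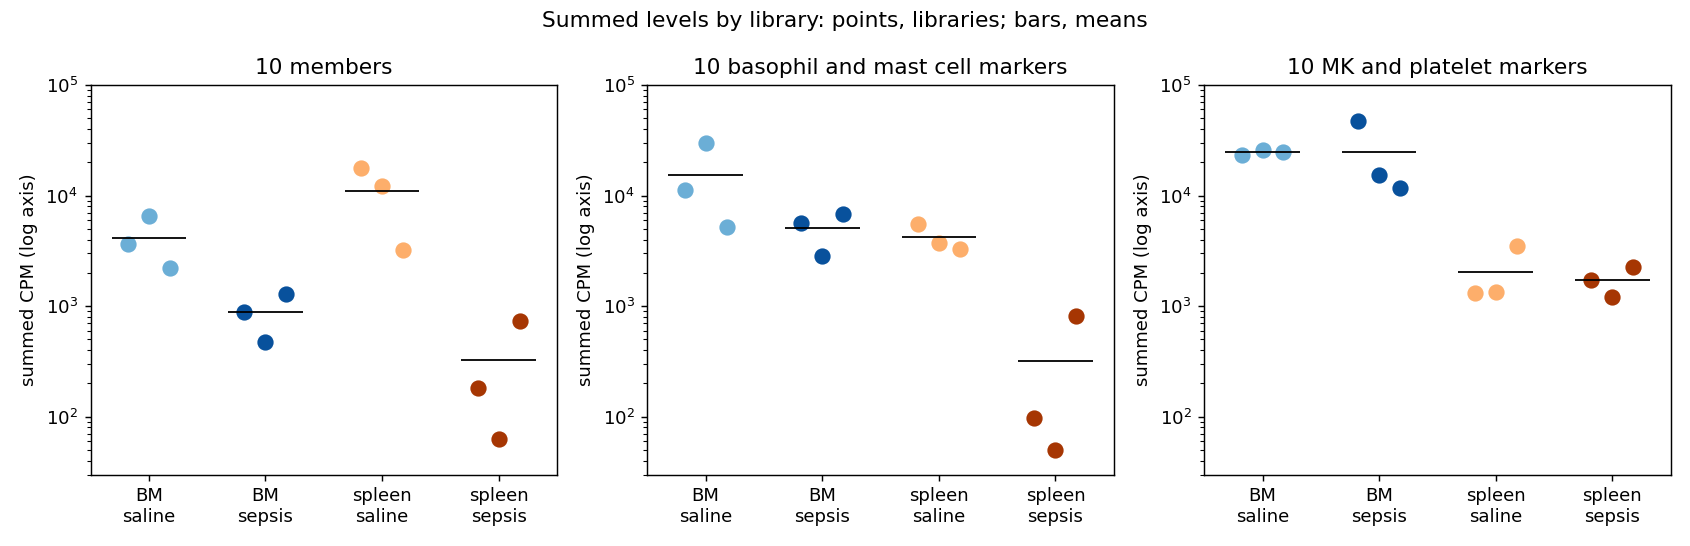
Summed CPM (vertical axis, log scale) of the 10 members, of 10 basophil and mast cell markers and of 10 MK and platelet markers in each library (points) with the group mean (bars). The members and the basophil and mast cell markers had their lowest mean in splenic MKs after sepsis, with libraries at 62.6 to 739 CPM and 50.5 to 813 CPM, while MK and platelet markers were at 1212 to 2256 CPM there and at 1304 to 3511 CPM after saline.

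Lists of other cells were summed in the same way. The lineage antibodies of the sort, against NK1.1, CD3, CD11b, F4/80 and B220, would remove NK cells, T cells, most neutrophils, monocytes and macrophages, and B cells. Summed neutrophil markers were at 107 to 286 CPM in BM MKs after saline and at 2274 to 16998 CPM after sepsis, opposite in direction to the chemokines, and in splenic MKs they overlapped (346 to 21852 CPM and 67.9 to 10700 CPM). Summed T cell markers were at 10.9 to 93.3 CPM after saline and 11.2 to 69.8 CPM after sepsis in BM MKs. In splenic MKs they were at 147 to 1814 CPM and 134 to 443 CPM, with none of the 8 at 0. NK cell markers were at 354 to 1892 CPM in splenic MKs after saline and at 118 to 238 CPM after sepsis, and at 724 to 1434 CPM and 734 to 1208 CPM in BM MKs, where Klrb1c was at 0 after sepsis. Nearly all of the BM sum came from Nkg7, with means of 932 CPM after saline and 954 CPM after sepsis. Gzma, the next highest of the list in BM, had means of 38.2 and 9.86 CPM, and Ncr1 had 2.72 and 0.142 CPM. Monocyte and macrophage markers were at 1689 to 2928 CPM in splenic MKs after saline and at 326 to 1028 CPM after sepsis, where C1qa and Cd14 were at 0, and at 425 to 1134 CPM and 849 to 1996 CPM in BM MKs. B cell markers, although B220 was among the antibodies, were at 2611 to 6390 CPM in splenic MKs after saline. After sepsis they were at 2677 to 9511 CPM there, above the MK and platelet markers (1212 to 2256 CPM) and lowest in replicate 3. In BM MKs they were at 160 to 253 CPM after saline and 52.3 to 89.9 CPM after sepsis. The part of these cells was not tested.

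Among 28 other chemokines, 16 passed the filter, and none was called after sepsis in BM or spleen (median log2 fold change 0.16 and -0.13). Between tissues, 2 were called higher in BM after saline, the platelet chemokine Pf4 (3.99, adjusted p = 0.00197 in edgeR) and the neutrophil attractant Cxcl5 (7.76, adjusted p = 0.0206), and 2 after sepsis, Pf4 (4.81, adjusted p = 0.000336) and Ppbp (3.05, adjusted p = 0.0341). Among 32 other cytokines, 19 passed the filter and 1, Il4, was called lower after sepsis in spleen. After sepsis, Il4 (6.26, adjusted p = 0.00525) and Il12a (4.26, adjusted p = 0.0336) were higher and Ltb (-4.48, adjusted p = 0.00344) lower in BM than in splenic MKs, and Ltb was the single cytokine called after saline (-4.22, adjusted p = 0.00704).

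Of the receptors of the members, none of the 13 was called in either tissue after sepsis or between tissues. Ccr1, a receptor for Ccl3, Ccl5, Ccl6 and Ccl9, was at 63.4 ± 50.8 CPM (SD, n = 3) in BM MKs after saline and at 20.8 ± 18.7 CPM after sepsis, and at 90.9 ± 40.1 CPM and 15.3 ± 5.81 CPM in splenic MKs. Its splenic groups did not overlap (58.99 to 136 against 8.85 to 20.2 CPM), with a log2 fold change of -2.57 (adjusted p = 0.382 in edgeR). Ccr3, the eotaxin receptor, was at 45.8 ± 39.9 CPM (SD, n = 3) in splenic MKs after saline and at 2.47 ± 2.24 CPM after sepsis. Il1r1, the signalling receptor for Il1b, was at 7.31 to 12.4 CPM in BM MKs after sepsis and at 0 to 0.0971 CPM in splenic MKs after sepsis, a log2 fold change of 8.02 (adjusted p = 0.101 in edgeR). Il6st was at 2.39 to 3.09 CPM in BM MKs after saline and at 12.3 to 24.2 CPM after sepsis, without overlap. The median log2 fold change of the 13 receptors was 0.53 in BM and -0.49 in spleen after sepsis. It was positive for 10 and negative for 3 in BM, and positive for 6 and negative for 7 in spleen.

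A list of 16 genes tied to NF-kB and mRNA decay held regulators and also Icam1, Ptgs2 and Sod2. None of the 16 was called after sepsis in either tissue (median -0.48 in BM and -0.98 in spleen). After saline 1 was called, Nfkbia, the inhibitor of NF-kB, lower in BM than in splenic MKs (-2.26, adjusted p = 0.0427 in edgeR). The 6 genes of processing and release, among them Casp1 and Nlrp3, gave no call after sepsis or between tissues in either condition. Of 11 immediate-early genes, which rise when cells are handled, 11 were lower after sepsis in BM and 10 in spleen by the sign of the log2 fold change, with a median of -0.80 and -0.60 and none called. Their summed level was 295 to 476 CPM and 213 to 245 CPM in BM MKs after saline and sepsis, and 966 to 1719 CPM and 523 to 1816 CPM in splenic MKs, and its part in the differences was not tested.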

How the data were processed

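RNA was measured in 12 libraries of 300 sorted MKs each, made with the SMART-Seq HT and Nextera XT kits. The authors deposited raw counts of reads per gene for 55536 genes, without normalization. The submitters' processing notes name STAR 2.7.2b, R 3.6.1, DESeq2 1.26 and GRCm38, and the annotation, counting options and strand setting were not given in the sources used here. Positions and exon lengths were taken from GENCODE M21 on GRCm38, in which all 55536 identifiers were found, and promoters from RefSeq on GRCm38.p6. Every column was assigned to its group from its label.

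Testing used edgeR 4.0.16 under R 4.3.3. DESeq2 1.42.0 and limma 3.58.1 served for alternatives, pandas 2.3.3 for tables, and matplotlib 3.10.9 for plots. filterByExpr (minimum count 10) left 20263 genes, TMM gave the scaling, and each group had its own mean, which leaves 8 residual degrees of freedom. Contrasts were examined with the quasi-likelihood F test, with Benjamini-Hochberg adjustment over all genes tested and a threshold of 0.05, and the procedure was tested on simulated data. The study gives n as mice, 3 for each group, although the labels do not link a library to a mouse, so whether BM and spleen libraries share mice was not given in the sources used here. Where a group had 0 counts, 3 counts were taken as its limit, which covers counting error only. The biological coefficient of variation was 143%, so spread between libraries and not depth (7756762 to 27386184 counts) limited most values.

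The members, lists and tests were chosen with earlier results of these data known. No p is given for Ccl3, Ccl4 and Il6 in any comparison, which is stricter than first planned, since every comparison uses libraries from which they were picked. Named genes were all members, up to 5 genes per list with the smallest p, receptors of the members, and for each member the 3 genes with the highest Pearson's r of log2 CPM (prior count 2), without segment genes. Not every gene this rule covers is given. Correlations are descriptions over 12 libraries. The ratios between members, to Cd200r3 and to the summed basophil and mast cell markers, and the average of sepsis over saline, were chosen after the data were seen. The correlation of deviations between libraries with the same replicate number was -0.06 to 0.04. Libraries with different numbers were not compared in this way, so these values cannot show whether the numbers pair the libraries.

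The alternatives were RLE factors, library size alone, no filter, 10 counts in at least 6 libraries, DESeq2, limma-voom with quality weights, a block for the replicate number, leaving out segment genes, a fit restricted to the 6 libraries compared, and each library left out in turn. They share most or all of the libraries, so a number of settings passed is not independent support.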

Additional observations from a re-analysis of the deposited data

How the results depend on the processing

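Of 772 recomputed values for single members given in the text, 701 kept their direction and side of the threshold or moved by less than the spread, 60 newly passed the threshold, 7 moved by more than the spread and 4, all of Il1b between tissues after sepsis, no longer passed, with an adjusted p of at most 0.0594. Of the 7, 6 came from leaving out splenic sepsis replicate 2 or 3 and 1 from limma-voom (Ccl3 in BM over spleen after sepsis, 5.03). None of these values reversed. However, 33 further gene by comparison values are not given in the text, and 17 of them reversed under at least 1 alternative, 61 times in all. They include all 7 comparisons of Tnf, the tissue differences of Osm (after saline reversed in 12 of 21 alternatives) and the averaged tissue differences of Ccl6 and Ccl9 (each in 7 of 20), so no direction is given for these. Of 7 tested members, the number called in sepsis over saline in BM was 0, with 2 under no filter and 1 in DESeq2. In spleen it was 0, with 3 under no filter, 3 in DESeq2, 1 with the replicate block and 1 to 3 with a library left out. For the average of sepsis over saline it was 0, with 3 under no filter, 5 in DESeq2, 1 with the replicate block and 1 to 3 with a library left out. For BM over spleen after saline it was 0, with 2 under no filter and 0 to 1 with a library left out. After sepsis it was 1, with 3 under no filter, 2 in DESeq2, 0 in the fit of 6 libraries and 0 to 3 with a library left out. For the average of the tissues it was 1, with 2 under no filter, 3 in DESeq2, 2 with the replicate block and 1 to 4 with a library left out. For the interaction it was 0, with 1 under no filter and 0 to 2 with a library left out, the 2 without splenic sepsis replicate 3. Over all genes, the number called ranged over the alternatives from 0 to 206 in BM (main 0), 0 to 986 in spleen (main 32), 1 to 676 for the average of sepsis (main 14), 179 to 1312 between tissues after saline (main 253), 256 to 1472 after sepsis (main 361), 810 to 2615 for the average of the tissues (main 962) and 0 to 495 for the interaction (main 0), highest in DESeq2 in each. The causes of these differences were not tested.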
